A study of Mus musculus with 28 samples.

Results

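The genes described here are 10 genes of the melanocyte, the pigment cell of skin and hair: Tyr, Tyrp1, Dct, Pmel, Mlana, Oca2, Slc45a2, Mc1r, Mitf and Kit. They were taken by name, as the melanocyte and pigment genes, from 29068 genes in the table of raw read counts, and all 10 were among the 18107 genes that passed the filter on low counts. The set was put together with results of these libraries in view, so the differences of these genes between days are a description, and counts of genes past a P threshold are given for reference and not as evidence. The libraries were made from total RNA of skin at the wound site of C57BL/6J mice (the study's MLKL+/+ genotype) whose dorsal excision, made with a 6 mm punch on a shaved back at 8 weeks of age and reaching the fascia, healed without treatment. There were 28 libraries, 4 for each of 7 days counted from the injury (0, 3, 5, 7, 10, 12 and 14), and every day had the same strain and the same natural healing. Day 0 is the control in the labels, and the study numbers the day of injury as day 1. The tissue taken was the whole wound site with its scab and margin, so the cells it held differed with the stage of healing, and in such bulk tissue fewer cells of a type and less RNA per cell cannot be told apart.

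Melanocytes arise from the neural crest and, in the back skin of mice, reside chiefly in the hair follicle, where they pass pigment to the growing shaft during anagen, the growth phase of the hair cycle. Melanin is made in a dedicated organelle, the melanosome, by tyrosinase (Tyr) and its relatives Tyrp1 and Dct, on fibrils built from Pmel, under the transcription factor Mitf, which binds short E box sequences in the promoters of pigment genes. Signals reach the cell through Mc1r, the melanocortin receptor that agouti protein antagonises, and through Kit, the receptor of stem cell factor, which melanocyte precursors need for migration and survival and which mast cells also carry.

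RefSeq promoters (build GRCm38.p6, the sequence of mm10) were held for 7 of the 10 genes and covered 250 bases before to 50 bases after each start. None was held for Pmel, Mlana and Slc45a2, so their promoters were not examined. The E box CATGTG was looked for on both strands, with its longer form TCATGTG, which contains it, and the other E box CACGTG, which reads the same on both strands. CATGTG stood in 5 of the 10 promoters of the 7 genes (Tyr, Tyrp1, Dct, Oca2 and Mc1r), against 14.2% of 32851 promoters of the same length. TCATGTG stood in 4 of them (Tyr, Tyrp1, Dct and Mc1r), against 3.77%, and CACGTG in 0 of the 10 promoters of the 7 genes, against 7.15%. None of the 3 Mitf promoters or the 2 Kit promoters held any of these letters. The 250 bases before the start of the 4 genes with TCATGTG are shown because these genes were at their lowest on day 3 and at their highest on day 14. Oca2 followed that course with CATGTG but without TCATGTG in its promoter, Mitf shared only the low on day 3 and Kit only the high on day 14. They run 5′ to 3′ on the strand of the gene, with each CATGTG or TCATGTG, on either strand, in capitals.
Tyr: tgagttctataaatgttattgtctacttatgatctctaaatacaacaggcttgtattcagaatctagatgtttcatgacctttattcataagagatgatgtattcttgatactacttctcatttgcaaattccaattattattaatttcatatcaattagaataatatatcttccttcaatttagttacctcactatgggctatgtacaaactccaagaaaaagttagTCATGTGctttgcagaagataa
Tyrp1: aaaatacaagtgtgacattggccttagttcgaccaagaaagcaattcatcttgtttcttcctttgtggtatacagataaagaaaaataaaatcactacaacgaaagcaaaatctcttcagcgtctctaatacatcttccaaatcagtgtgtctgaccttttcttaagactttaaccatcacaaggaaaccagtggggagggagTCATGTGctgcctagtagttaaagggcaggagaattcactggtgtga
Dct: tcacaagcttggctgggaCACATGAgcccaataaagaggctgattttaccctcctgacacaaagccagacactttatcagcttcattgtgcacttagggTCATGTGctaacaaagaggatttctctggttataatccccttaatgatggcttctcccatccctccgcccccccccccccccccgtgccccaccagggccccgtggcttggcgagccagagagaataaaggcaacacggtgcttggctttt
Mc1r: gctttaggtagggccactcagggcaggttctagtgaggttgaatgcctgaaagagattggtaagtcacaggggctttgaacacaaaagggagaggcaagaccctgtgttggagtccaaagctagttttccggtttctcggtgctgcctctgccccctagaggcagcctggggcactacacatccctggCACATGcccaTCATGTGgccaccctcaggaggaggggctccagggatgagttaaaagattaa
The stretch before Tyr is chr7:87493513-87493762 on the minus strand, that before Tyrp1 is chr4:80833963-80834212 on the plus strand, that before Dct is chr14:118052247-118052496 on the minus strand and that before Mc1r is chr8:123406832-123407081 on the plus strand. CATGTG began 21 bases before the start in Tyr, 46 bases before it in Tyrp1 and 150 bases before it in Dct. The GENCODE model of Tyrp1 starts farther upstream than RefSeq's, within the stretch shown and ahead of its CATGTG. By that model these letters lie after the start of Tyrp1. Dct held a second copy on the opposite strand 232 bases before its start, and Mc1r held 2 copies, 62 and 51 bases before its start. The longer run of letters AGTCATGTGCT, looked for after these sequences had been read, was shared by Tyr and Tyrp1 and stood in 7 of the 32851 promoters. These matches describe the letters only, and binding was not measured.

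Each library held between 36706513 and 40655764 counted reads, and all keratinocyte and dermal fibroblast marker genes looked for were detected in all 28. The day 0 libraries were less alike than those of any other day, with a biological coefficient of variation of 26.5% against 5.77% to 10.8%. Day 0 replicate 1 stood apart for the pigment genes, as described gene by gene, and so did its 21 genes of the anagen hair follicle, whose summed level was 3024 CPM (reads scaled to a common library size, with TMM factors) against 391.6 to 913.9 in the other 3. The 8 dermal fibroblast genes divided the day 0 libraries otherwise, with sums of 25620 and 14760 CPM in replicates 1 and 4 and of 57370 and 55130 CPM in replicates 2 and 3. Where leaving out replicate 1 moved a fold against day 0 printed here by more than 1.5 times, it is also given without that library, unless too few reads were left for a fold.

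Of the 10 genes, 8 followed a shared course: lowest on day 3, overlapping the day 0 libraries on day 7 and far above them on day 14. These were Tyr, Tyrp1, Dct, Pmel, Mlana, Oca2, Slc45a2 and Mc1r, whose fitted level on day 14 was 6.17 (Mlana) to 45.2 (Mc1r) times that of day 0. It was 53.2 (Mlana) to 255 (Pmel) times that of day 3, leaving aside Oca2 and Slc45a2, which had 0 and 4 reads in all that day. Against the other 3 day 0 libraries, without replicate 1, the day 14 level was 6.91 (Mlana) to 95.3 (Slc45a2) times that of day 0, Oca2 left out for its 4, 4 and 0 reads in them. Those 3 libraries also set day 7 higher, at 0.962 (Dct) to 3.53 (Mc1r) times day 0, with Tyr at 2.19 and Slc45a2 at 2.91. Against them, all day 7 libraries of Tyr, Oca2, Slc45a2 and Mc1r lay above day 0, Slc45a2 narrowly (0.3356 against 0.3339 CPM). The day 7 overlap of these genes thus rested on replicate 1. Mitf and Kit did not follow this course, and their day means spanned 23.2 to 32.1 CPM and 22.1 to 39.97 CPM. In 6 of the 10 genes all 4 day 3 libraries lay below all 4 of day 0, as they did in 28.6% of all genes. The median log2 fold change of the 10 genes against day 0 was -3.22 on day 3 (-3.07 with Oca2, listed at 0 on that day, set to its bound), and -1.56, -0.12, 1.73, 3.07 and 4.20 on the later days in order, while the median over all genes tested lay between -0.06 and 0.00. Over the 9 genes other than Oca2 and without day 0 replicate 1, the median was -2.44, -0.83, 0.20, 2.35, 3.83 and 4.88 on the 6 days, against -3.11, -1.46, -0.08, 1.59, 3.002 and 3.996 with it.

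**Figure D1:**
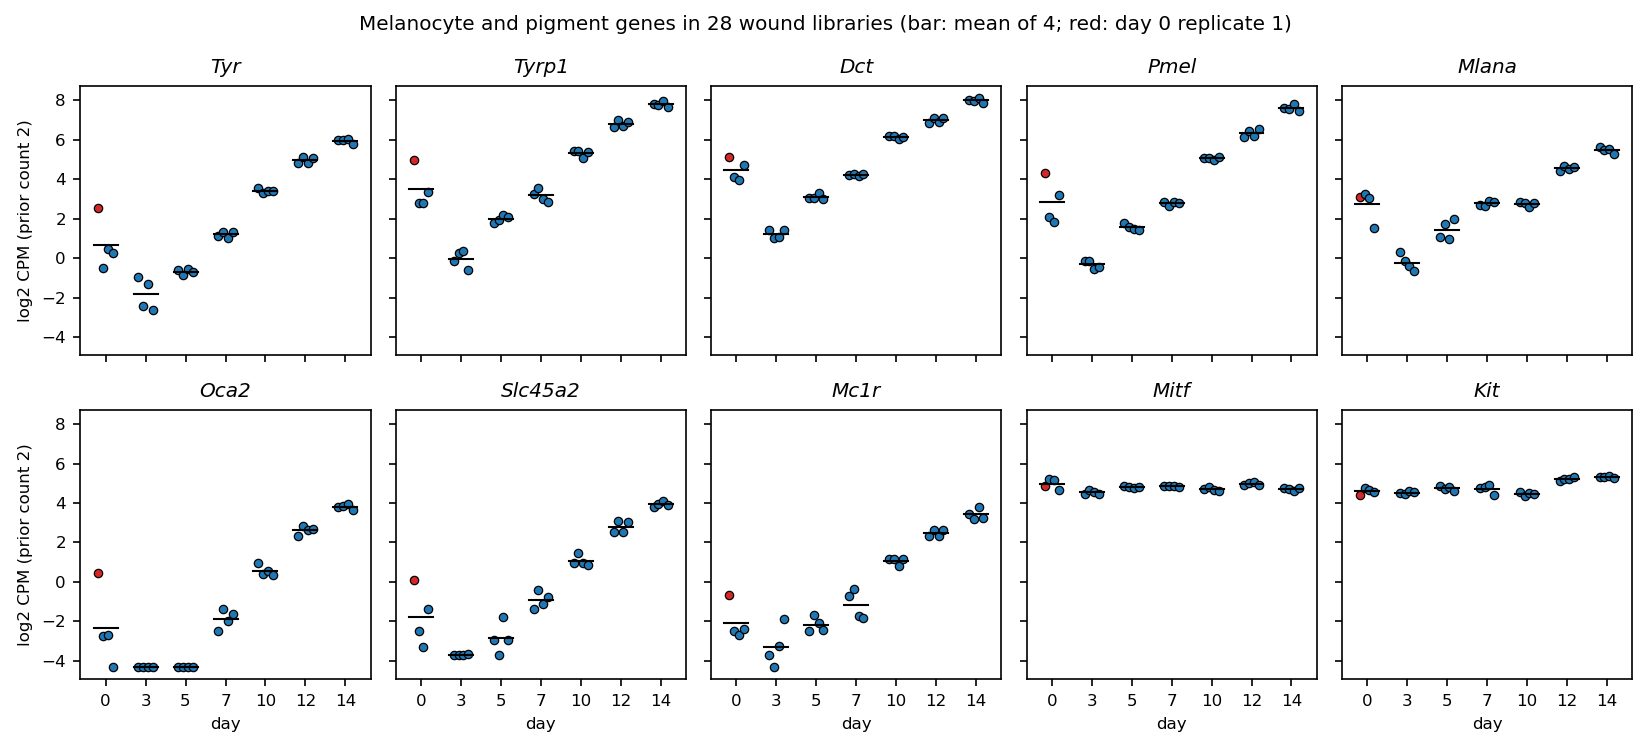
Level of each gene as log2 CPM (vertical axis, with a prior count of 2) in the 4 libraries of each day (horizontal axis); a point is a library, a bar the mean of 4, and red marks day 0 replicate 1. Tyr, Tyrp1, Dct, Pmel, Mlana, Oca2, Slc45a2 and Mc1r are lowest on day 3 (Oca2 also on day 5) and highest on day 14, Mlana is level from day 7 to day 10, Mitf varies little, and Kit lies higher on days 12 and 14 than before.

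Tyr, tyrosinase, catalyses the first and limiting steps of melanin synthesis and lies at chr7:87424771-87493512 (GENCODE positions on GRCm38), with 6 exons after overlapping ones were joined. Tyr and Dct are on the minus strand and the other 8 genes on the plus strand. At day 0 it was at 5.73, 0.657, 1.32 and 1.14 CPM in replicates 1 to 4, on 217, 26, 51 and 41 reads. On day 3 it was at 0.459, 0.136, 0.355 and 0.110 CPM, on 17 reads at most. All 4 day 3 libraries lay below all 4 at day 0, and the first day 0 library stood well above the other 3. Tyr stood at 0.498 to 0.632 CPM on day 5 and at 2.12, 2.48, 2.01 and 2.45 CPM on day 7, within the span of day 0. It then measured 11.8, 9.87, 10.6 and 10.7 CPM on day 10, and 28.4, 35.3, 28.7 and 34.4 CPM on day 12. On day 14 the libraries held 63.2, 63.3, 66.3 and 55.0 CPM, and no library of day 7, 10, 12 or 14 overlapped the day before it in this order. The log2 fold change against day 0 was -3.04 (SE 0.516) on day 3 and 4.81 (SE 0.335) on day 14, and -1.90 (SE 0.292) and 5.98 (SE 0.182) without day 0 replicate 1.

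Tyrp1, which oxidises a later melanin intermediate, lies at chr4:80834123-80851719. It was at 32.0, 6.97, 7.00 and 10.1 CPM at day 0 and at 0.607 to 1.23 CPM on day 3. By day 14 it had 224, 220, 247 and 202 CPM, 16.0 times the day 0 mean (log2 fold change 4.00, SE 0.303) and 232 times that of day 3. Without day 0 replicate 1 it was 29.5 times the day 0 mean on day 14, and its log2 fold change on day 3 was -3.003 in place of -3.86. Again replicate 1 was the highest at day 0 and no day 3 library reached the day 0 range. Dct, dopachrome tautomerase, acts between the other two enzymes and lies at chr14:118012790-118052244. It had the highest deposited FPKM (fragments per kilobase of transcript, scaled to the library total) of the 10 on day 14. This was 120.7 ± 6.23 (SD, n = 4). Dct counted as 2263 bases there, where GENCODE gives it 5895 bases of joined exons, so the rank depends on the length used. Its day 0 libraries held 35.2, 17.1, 15.5 and 26.2 CPM, those of day 3 held 2.65, 1.96, 2.08 and 2.68 CPM and those of day 14 held 263, 254, 276 and 232 CPM. With replicate 1 less far from the rest than for Tyr, its log2 fold changes moved least among the enzymes when that library was left out. On day 14 the move was from 3.45 (SE 0.160) to 3.79 (SE 0.130).

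Pmel (chr10:128704195-128720238), whose product forms the fibrils on which melanin is laid down, was at 20.3, 4.25, 3.55 and 9.07 CPM at day 0. Day 3 libraries held 0.628 to 0.870 CPM. It then held 33.6, 34.3, 31.7 and 35.1 CPM on day 10 and 195, 189, 226 and 174 CPM on day 14. Against day 0 that was a log2 fold change of 4.40, and of 5.21 without day 0 replicate 1. From day 12 to day 14 it was 2.40 times higher, the widest step of the 10 genes over that interval. The ends of Pmel overlap exons of Dgka and Cdk2 on the other strand. Whether the counting used strand is not given in the sources used here, so reads of those ends cannot be assigned to Pmel with certainty. Mlana (chr19:29697824-29708634), a small melanosomal membrane protein also called MART-1, differed in its course. At day 0 it had 8.51, 9.38, 8.17 and 2.87 CPM, with replicate 4 low and replicate 1 within the range of replicates 2 and 3, unlike the other 7 genes. It was at 6.45, 6.30, 7.37 and 7.21 CPM on day 7 and at 7.26, 6.82, 5.98 and 6.92 CPM on day 10, overlapping ranges with a ratio of the fitted means of 0.987. Over the same interval the other 7 genes of the shared course were 3.75 (Dct) to 6.02 (Oca2) times higher, and in each of them all day 10 libraries lay above all day 7 libraries, as in 17.3% of all genes. From day 10 to day 12 Mlana was in turn 3.51 times higher, against 1.81 (Dct) to 4.26 (Oca2) in those 7, and it reached 49.4, 44.6, 46.6 and 38.3 CPM on day 14.

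Oca2 and Slc45a2 are melanosomal membrane transporters that set the conditions for tyrosinase, and both are causes of albinism when lost. Oca2 (chr7:56239760-56536518) had 50, 4, 4 and 0 reads at day 0, so that replicate 1 carried 50 of the 58. It had 0 reads in all 8 libraries of days 3 and 5, which allows up to 3 reads in each. Taken at that limit, Oca2 was at least 4.66-fold lower on day 3 and at least 4.81-fold lower on day 5 than at day 0. Without day 0 replicate 1 the limit lay above the day 0 mean and no fold could be given. It returned with 5, 13, 8 and 11 reads on day 7 and 74, 51, 55 and 49 on day 10, and reached 577, 600, 620 and 513 reads on day 14, at least 170-fold above day 3. Slc45a2 (chr15:11000721-11029233) had 38, 5, 2 and 12 reads at day 0 and 1 read in each library of day 3, a ratio of 13.8 with a 95% counting interval of 5.09 to 52.2. Its log2 fold change on day 3 was -3.64, and -2.44 without day 0 replicate 1. On day 14 it had 577, 645, 704 and 626 reads, or 15.4 ± 1.39 CPM (SD, n = 4). The ratio to day 3 was 564, with a counting interval of 220 to 2070. Day 14 was 40.5 times the day 0 level, and 95.3 times it without day 0 replicate 1. These intervals and limits cover counting error only, and no library of day 14 overlapped an earlier day for either gene.

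Mc1r (chr8:123407107-123410744, 1 exon), the receptor for melanocyte stimulating hormone, had 22, 5, 4 and 5 reads at day 0. Per length it was the lowest of the 10 on average that day, with a range that overlapped that of Oca2, which was the lowest without replicate 1 (0.0203 against 0.0329 FPKM). It had 1, 0, 2 and 8 reads on day 3, a range that overlapped day 0, and 22, 28, 10 and 9 on day 7. On day 14 it had 455, 385, 560 and 399 reads, 45.2 times the day 0 mean in CPM (log2 fold change 5.498, SE 0.382), and 90.95 times it without replicate 1. A transcript model of uncertain status, Gm38092, lies within its exon on the other strand. The receptor and the transporters had the largest ratios to day 0 and the fewest reads behind them.

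Mitf, the transcription factor on which the lineage depends, and Kit, a growth factor receptor of melanoblasts, did not share this course. Mitf (chr6:97807052-98021349) was at 28.8, 37.8, 36.4 and 25.4 CPM at day 0, at 22.2, 25.6, 23.4 and 21.6 CPM on day 3 and at 24.71 to 27.01 CPM on day 14. Its day means ran from 23.2 CPM on day 3 to 32.1 CPM at day 0, and the day 14 libraries overlapped those of day 0 (log2 fold change -0.30, SE 0.0846). Kit (chr5:75574916-75656722) was at 21, 26.7, 25.4 and 23.15 CPM at day 0, between 20.4 and 30.2 CPM in every library of days 3 to 10, and at 35.2, 37.6, 36.5 and 39.3 CPM on day 12. On day 14 it was at 40.3, 40.3, 41.2 and 38.1 CPM, 1.66 times day 0, and all 8 libraries of days 12 and 14 lay above the other 20. Mast cells also express both genes. The 11 mast cell genes summed to 547 to 671.4 CPM at day 0 and, on days 12 and 14, to 481.6 to 615.6 and 155 to 214.9 CPM, with no gene of the list at 0 in any library. Kit was thus at its highest on the day on which the mast cell sum was at its lowest. The part of mast cells in the Kit and Mitf levels was not tested. At day 0 Mitf was higher in replicates 2 and 3 than in 1 and 4. So were the summed dermal fibroblast genes, at 57370 and 55130 against 25620 and 14760 CPM. On day 10 those genes summed to 53310 to 60570 CPM and the Mitf mean was 26.25 CPM. The counts are per gene and do not separate transcripts from the 3 Mitf promoters. The part of other cells in the Mitf level was not tested either. Across the 28 libraries, which share their days, log2 CPM of Tyr correlated with that of the other 7 genes of the shared course at r = 0.921 (Mlana) to 0.984 (Pmel), with Kit at r = 0.667 and with Mitf at r = 0.181.

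The number of genes past the study's rule (a log2 fold change of more than 1.5 either way with P below 0.05 before adjustment, taken from the edgeR fit) follows from how the set was put together and is given only for reference. Against day 0, 8 of the 10 were past it as lower on day 3 (12.4% of all genes tested), 5 on day 5 (8.31%) and 0 on days 7, 10, 12 and 14 (4.74%, 5.14%, 3.51% and 8.83%). As higher, 0 were past it on days 3, 5 and 7 (6.5%, 5.61% and 4.66% of all genes), 7 on day 10 (4.33%) and 8 on each of days 12 and 14 (3.89% and 5.15%). Without day 0 replicate 1 the day 3 count was 7 in place of 8 and the day 5 count was 1 in place of 5. That 1 gene was Oca2, with 0 reads on day 5 and 4, 4 and 0 in the remaining day 0 libraries, so its fitted fold came from the prior count and is no measured difference. The same holds for Oca2 on day 3, which is among the 7. As higher, 3 genes (Oca2, Slc45a2 and Mc1r) were then past the rule on day 7 in place of 0. All 3 rested on few day 0 reads, with 5, 2 and 12 left for Slc45a2 and 5, 4 and 5 for Mc1r. Between successive wound days, 4 were higher from day 3 to day 5 (2.23%), 3 from day 5 to day 7 (2.5%), 7 from day 7 to day 10 (1.39%), 4 from day 10 to day 12 (3.47%) and 0 from day 12 to day 14 (0.79%). On day 14, 8 were higher than on day 3 (9%). From day 12 to day 14 each of the 8 genes was 1.89 to 2.40 times higher, with no overlap between the libraries of the 2 days, against 20.7% of all genes that were higher without overlap. With an adjusted p under 0.05 and no fold limit in place of the study's rule, 9, 8, 0, 1, 0 and 1 of the 10 were lower than at day 0 on days 3, 5, 7, 10, 12 and 14, where 34.8%, 30.6%, 24.8%, 26.9%, 25.6% and 34.5% of all genes were. As higher these were 0, 0, 0, 7, 9 and 9 genes, against 31.8%, 29%, 25.6%, 23.5%, 21.7% and 28.2% of all genes. Between days, 7 genes were then higher from day 5 to day 7 (13.9%), 1 was lower from day 7 to day 10 (18%), 10 were higher from day 10 to day 12 (18.7%), and 8 were higher and 1 lower from day 12 to day 14 (19.9% and 25.3%).

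**Figure D2:**
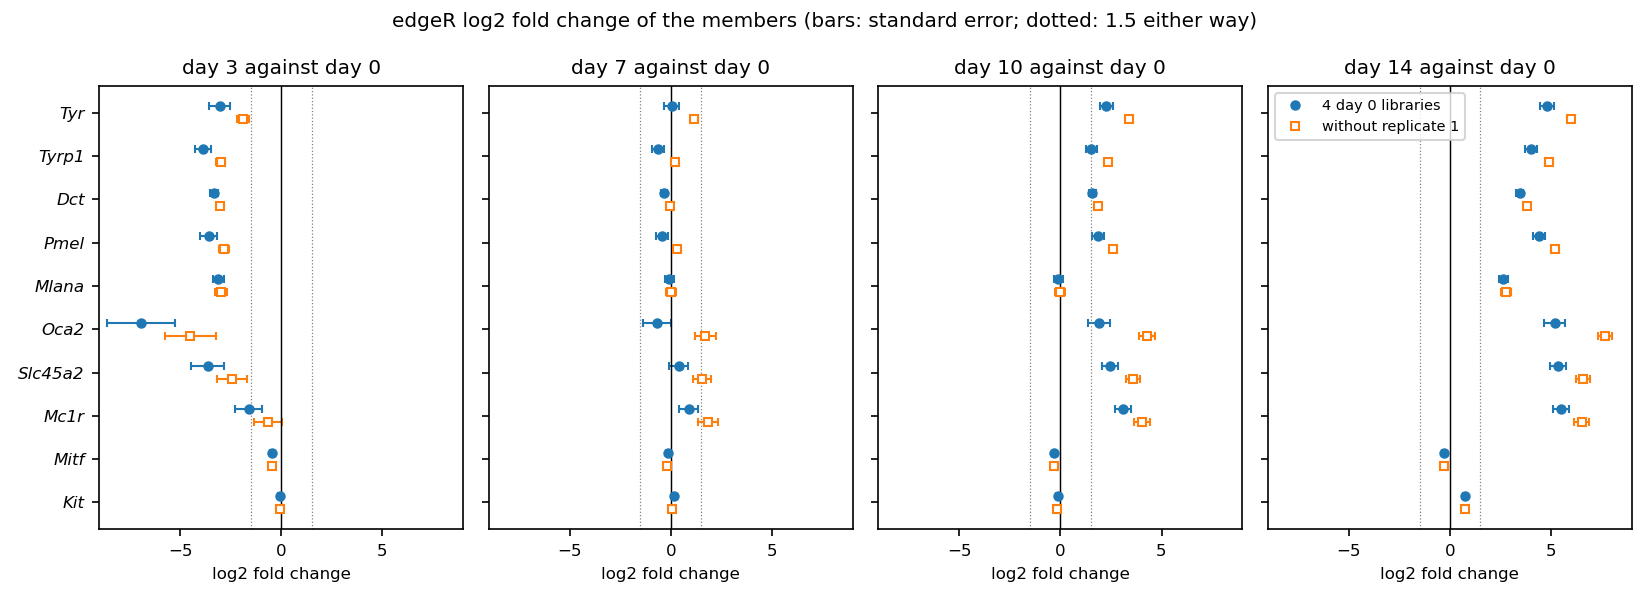
Log2 fold change against day 0 (horizontal axis) of each gene (rows) on days 3, 7, 10 and 14, with its standard error as a bar; filled circles use all 4 day 0 libraries, open squares leave out replicate 1, and dotted lines mark 1.5 either way. Leaving that library out moves the points to the right for Tyr, Tyrp1, Pmel, Oca2, Slc45a2 and Mc1r and hardly moves Mlana, Mitf and Kit; the day 3 points of Oca2, at 0 reads that day, depend on the prior count and are not measured folds, and its open squares rest on 8 day 0 reads.

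Compared per length, the order of the genes changed with the day. The orders below hold for the lengths behind the deposited FPKM, which differ for several genes from the joined exons of GENCODE. They were 2263 against 5895 bases for Dct, 3270 against 2292 for Pmel and 704 against 1057 for Mlana. Kit had 5182 against 8911 and Mitf 10713 against 6196. With the GENCODE lengths the orders would differ, and which lengths suit these libraries was not tested. At day 0 Dct and Mlana led, with mean FPKM of 10.1 and 10.0 and overlapping ranges, followed by Tyrp1 (4.79) and Kit (4.54), whose ranges overlapped too. Without replicate 1, the means of Kit (4.74) and Mitf (3.03) stood above that of Tyrp1 (2.76), with overlapping ranges of Mitf and Tyrp1. On day 3 Kit (4.17) and Mitf (2.04) stood above all the others, of which Mlana (1.12) and Dct (0.971) were the highest. On day 14 the order was Dct (120.7), Tyrp1 (83.6), Mlana (67.7), Pmel (63.8), Tyr (9.29), Kit (8.23), Slc45a2 (5.495), Oca2 (4.497), Mc1r (3.15) and Mitf (2.60). Among these, the ranges of Mlana and Pmel, of Tyr and Kit, and of Mc1r and Mitf overlapped.

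The gene lengths behind the FPKM also bear on the share of each gene in the summed FPKM of the 8 genes of the shared course. Within each library, that share does not depend on how much pigment cell RNA the tissue held in all. Mlana made up 36.6% to 43.6% of that sum on day 7 but 13.7% to 14.4% by day 10, and 18.0% to 21.5% later. Dct made up 33.1% to 35.6% of it on day 7, against 45.1% to 46.4% by day 10 and 33.2% to 35.0% later. The shares of Tyrp1 and Pmel lay higher on days 10, 12 and 14 (19.5% to 24.6% and 14.4% to 18.8%) than on day 7 (10.6% to 16.8% and 7.91% to 9.43%). At day 0 the libraries differed widely, with Mlana between 18.3% and 53.6%. The ratio of Dct to Tyr in FPKM was 19.3 to 81.8 at day 0, 24.6 to 27.99 on day 7 and 12.4 to 13.3 on days 12 and 14, so that Tyr took a larger share late. Between days 12 and 14 the shares of Mlana, Dct, Tyrp1 and Tyr overlapped, whereas that of Pmel was 14.6% to 16.3% on day 12 and 17.2% to 18.8% on day 14, without overlap. The summed level of the 8 genes was 351.8 to 437.5 CPM on day 12 and 737.4 to 909.1 CPM on day 14.

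**Figure D3:**
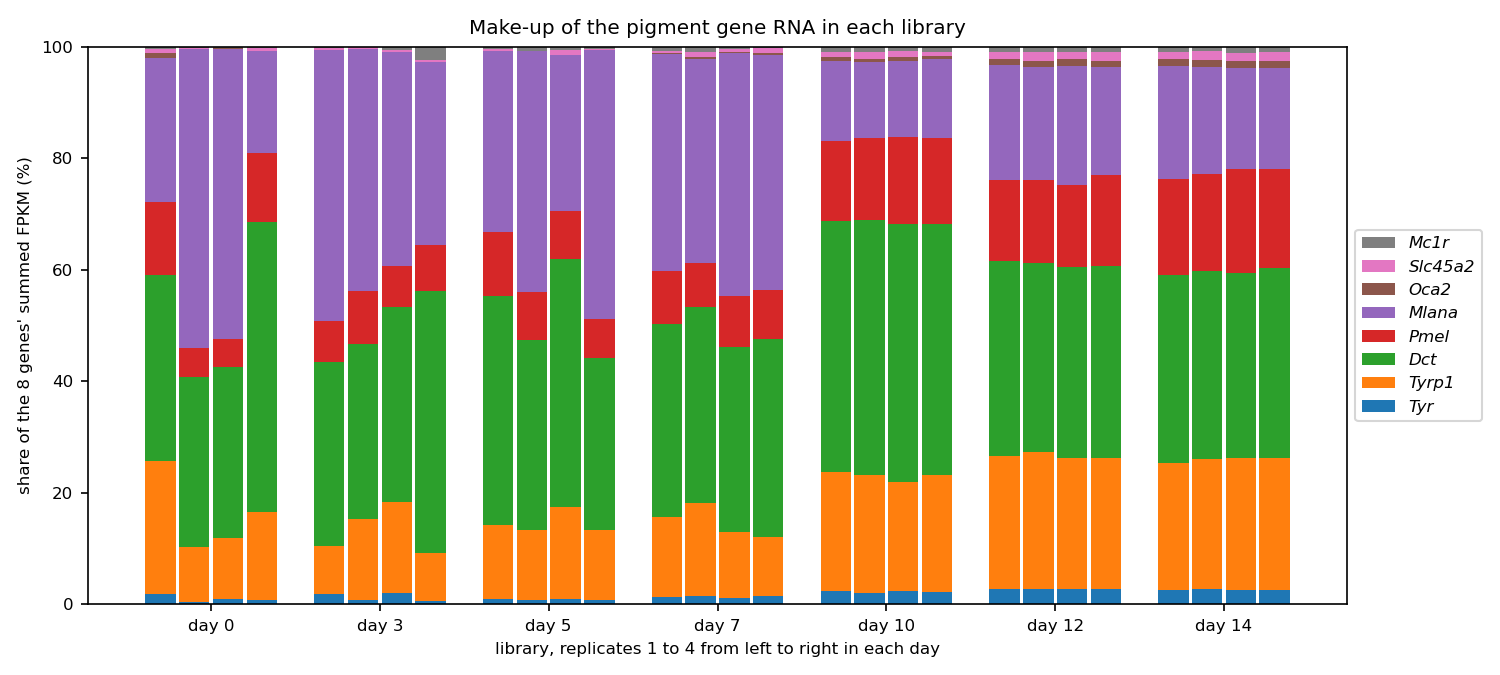
Share of each of 8 genes in their summed FPKM (vertical axis, percent) in each of the 28 libraries, grouped by day. The purple band, Mlana, narrows from 36.6% to 43.6% on day 7 to 13.7% to 14.4% on day 10, and the share of Pmel is wider on day 14 than on day 12.

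Since back skin melanocytes sit in hair follicles, the summed level of the 21 anagen follicle genes (hair keratins, inner root sheath keratins, trichohyalin and their regulators) is given beside that of the 8 pigment genes of the shared course, without Mitf and Kit. The follicle sum was 16.15 to 24.04 CPM on day 3 and 22.14 to 34.43 CPM on day 5, and the pigment sum was at its lowest, 4.91 to 6.1 and 17.9 to 19.9 CPM, on the same days. Both were higher on day 7, at 1746 to 2385 CPM for the follicle genes and 43.5 to 47.96 CPM for the pigment genes. From day 7 to day 10 the sums moved apart: the follicle sum was lower, at 428.8 to 486.7 CPM, and the pigment sum higher, at 152.7 to 175.1 CPM. The follicle genes did not move as one, and abundant genes such as Tchh (mean 625.3 CPM on day 7 and 20.2 CPM on day 10) and Krt71 (397.1 and 80.6 CPM) weigh most in the sum. All day 10 libraries lay below all day 7 libraries in 14 of the 21 (20.1% of all genes), above them in 5 (Krt35, Msx2, Hoxc13, Dlx3 and Shh; 17.3% of all genes), and overlapped them in 2 (Krt85 and Krt73). Of the 21 follicle genes, 12 were past the rule as lower (3.22% of all genes) and 1 as higher (1.39%). The gene past the rule as higher was Shh, a signal of the growing follicle. On days 12 and 14 the follicle genes summed to 6639 to 8775 and 7432 to 9840 CPM. In day 0 replicate 1 both sums stood above the other 3 libraries, 104.5 against 35.8 to 49.9 CPM for the pigment genes. Among the other 3, replicate 4 had the highest pigment sum (49.9 CPM) and the lowest follicle sum (391.6 CPM). The part of hair follicles in the pigment gene levels was not tested.

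**Figure D4:**
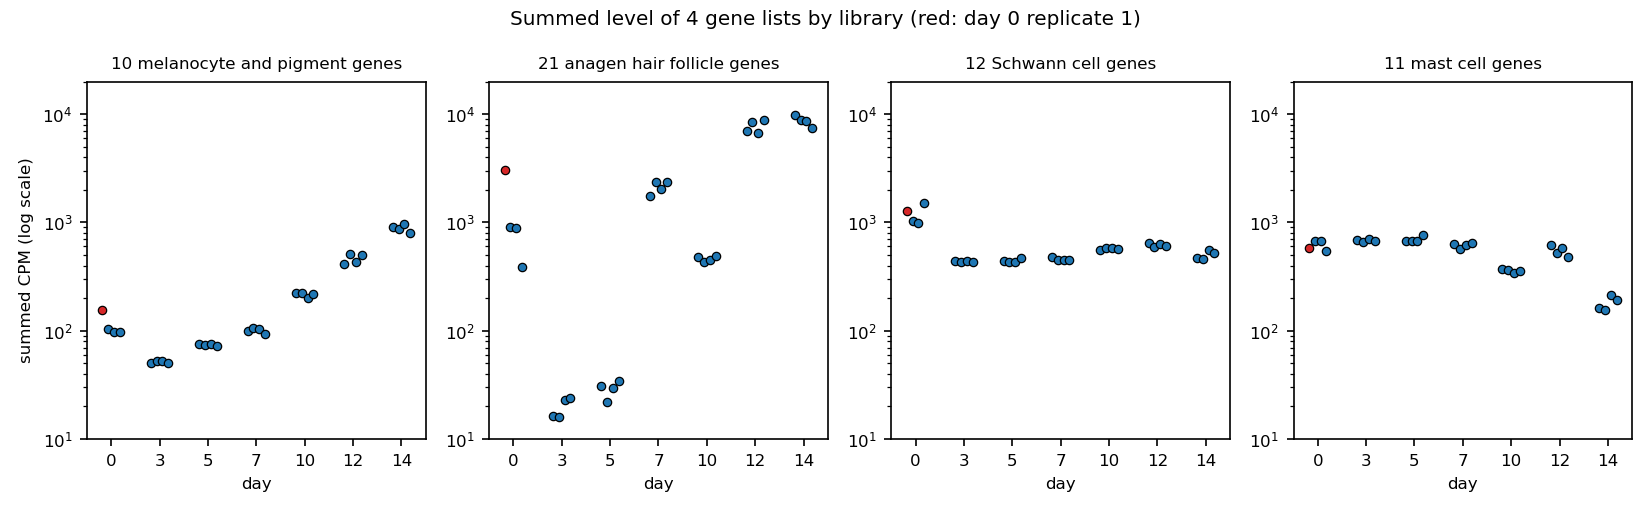
Summed CPM (vertical axis, log scale) of 4 gene lists in the 4 libraries of each day (horizontal axis), with day 0 replicate 1 in red. The sum of the 10 pigment genes, of which Mitf and Kit make up most on day 3, lies higher on day 10 than on day 7 (201.1 to 224.5 against 93.39 to 105 CPM) while the hair follicle sum lies lower (428.8 to 486.7 against 1746 to 2385 CPM).

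The further genes of melanosomes, pigment signals and their transcription factors, which are not part of the set of 10, were tested in the same fit with Benjamini-Hochberg adjustment over all 18107 genes. These lists too were put together with results of these libraries known, and the named genes are largely those with the widest changes, so their adjusted p-values are no independent evidence. Of 25 melanosome genes, 4 were higher than at day 0 on each of days 10, 12 and 14 (4.33%, 3.89% and 5.15% of all genes) and 0 lower (5.14%, 3.51% and 8.83%). On day 3, 2 were higher (6.5%) and 2 lower (12.4%), counts near those shares. Slc24a5, a melanosomal ion exchanger, fell 16.7-fold on day 3 (log2 fold change -4.06, SE 0.735, edgeR adjusted p = 2.28e-05) and rose 24.2-fold on day 14 (4.60, SE 0.393, adjusted p = 7.13e-11). Trpm1, a channel gene of melanocytes and retina, fell on day 3 by 3.11 on the log2 scale (SE 0.493, edgeR adjusted p = 3.3e-06) and rose on day 14 by 4.27 (SE 0.354, adjusted p = 4.13e-11). Without day 0 replicate 1 the log2 fold changes were -2.60 and 6.08 for Slc24a5 and -1.91 and 5.501 for Trpm1 on these days. Gpr143, a melanosomal receptor, had 9, 1, 0 and 0 reads in the day 0 libraries and 149 to 201 on day 14, a log2 fold change of 5.96 (SE 0.601, edgeR adjusted p = 1.73e-09) whose size rests on replicate 1, since 1 read was left at day 0 without it. Slc7a11, the cystine transporter of the subtle gray coat mutant, which many stressed cells also use, took another course and was past the rule as higher on all 6 days, most on day 3 at 54.7-fold (SE 0.196 on the log2 scale, edgeR adjusted p = 1.61e-19). Gpnmb, a relative of Pmel that macrophages also make, rose 3.48-fold on day 10 (edgeR adjusted p = 1.21e-13) and was 2.71 times its day 0 level on day 14 (a log2 fold change of 1.44, and of 1.70, past the rule, without day 0 replicate 1), when 12 macrophage genes summed to 1107 to 1183 CPM against 2350 to 3371 at day 0. On day 10 that sum was 3086 to 3372 CPM, overlapping day 0, while 2 of the 12, Trem2 and Spp1, averaged 47.2 and 419.4 CPM against 12.3 and 25 CPM at day 0. On day 14 they averaged 20.2 and 43.5 CPM. The part of macrophages in the Gpnmb level was not tested. Mlph, which links melanosomes to their motor, did not pass the rule on any day, with fitted folds of 0.405 on day 3 and 1.91 on day 14. Most of the list, the trafficking genes shared with other lysosome related organelles among them, thus stayed within the fold limit, and the median log2 fold change of the 25 genes lay between 0.02 and 0.26 on the 6 days.

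Of 12 genes for signals to melanocytes, 1 was higher and 2 lower on day 3 (6.5% and 12.4% of all genes), counts near those shares, and 3 were higher and 0 lower on day 14 (5.15% and 8.83%). Corin, the dermal papilla protease that limits agouti signalling, fell 20.2-fold on day 3 (log2 fold change -4.33, SE 0.582, edgeR adjusted p = 2.36e-07) and rose 15.2-fold on day 14 (3.92, SE 0.313, adjusted p = 1.83e-11). Asip, which encodes agouti and is listed in the table under its older symbol a, rose 5.21-fold on day 12 (edgeR adjusted p = 1.54e-08) and 4.53-fold on day 14 (adjusted p = 2.66e-08). Without day 0 replicate 1 Corin was 12.8-fold lower on day 3, and the log2 fold changes on day 14 were 4.60 for Corin and 2.76 for Asip. Both genes were thus higher late, when Mc1r was higher too. Edn3, a ligand that drives melanoblast expansion, fell by 3.24 on the log2 scale on day 3 (SE 0.259, edgeR adjusted p = 1.19e-11) and by 1.61 on day 7 (SE 0.221, adjusted p = 7.03e-07). Its receptor gene Ednrb rose 4.01-fold on day 14 (edgeR adjusted p = 3.2e-14) and stood at 2.08 times its day 0 level on day 3, within the fold limit, when Edn3 was low. Kitl, the Kit ligand, was between 1.11 and 1.38 times day 0 on every day and never passed the rule. Pomc, the precursor of melanocyte stimulating hormone, had 1 to 27 reads in a library and passed the rule on no day, with a fitted fold of 2.23 (SE 0.694 on the log2 scale) on day 5.

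Of 11 transcription factor genes of the lineage, 5 fell on each of days 3 and 5 (12.4% and 8.31% of all genes) and 3 fell on day 7 (4.74%). The 1 that rose on days 12 and 14 is near the share of all genes (3.89% and 5.15%). Sox10, which acts upstream of Mitf, fell 6.33-fold on day 3 (log2 fold change -2.66, SE 0.194, edgeR adjusted p = 1.79e-12) and was still 0.687 times its day 0 level on day 14 (adjusted p = 0.0084). Schwann cells also express Sox10, and 12 Schwann cell genes summed to 980.2 to 1498 CPM at day 0 but only to 432.1 to 444.5 CPM on day 3 and 460.3 to 553.3 CPM by day 14, with none at 0. Their part in the Sox10 level was not tested. Pax3, expressed in melanoblasts and melanocyte stem cells, fell by 3.58 on the log2 scale on day 3 (SE 0.261, edgeR adjusted p = 1.79e-12) and was at 1.40 times day 0 on day 14, within the fold limit. Lef1, a Wnt effector of both the hair matrix and melanocytes, fell on day 3 by 2.81 on the log2 scale (SE 0.261, edgeR adjusted p = 2.57e-10) and rose 11.01-fold on day 14 (adjusted p = 5.63e-14). Of Sox10, Pax3 and Lef1, only Lef1 passed the rule as higher late.

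**Figure D5:**
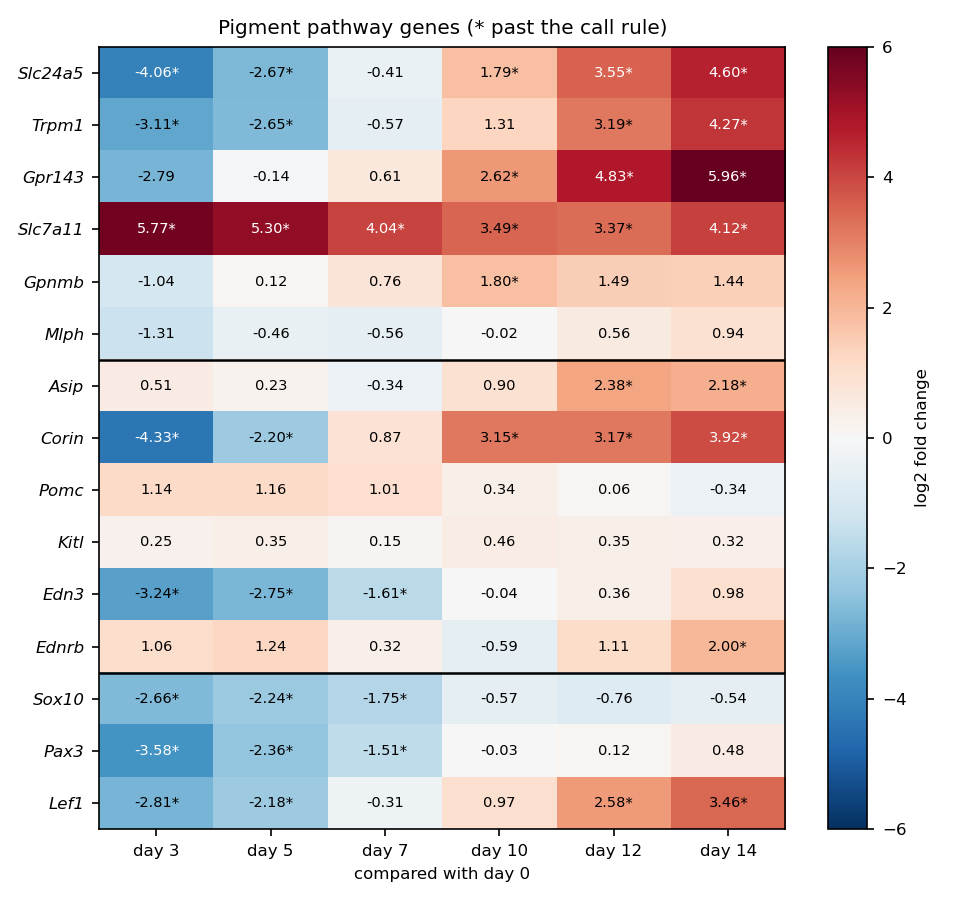
Log2 fold change against day 0 (colour and printed value) of named genes outside the set of 10 (rows; melanosome, signal and transcription factor genes from top to bottom) on each wound day (columns), with an asterisk where the study's rule was passed. Slc24a5, Trpm1, Corin and Lef1 are blue on day 3 and red on day 14, Slc7a11 is red on all 6 days, and Sox10 is below 0 on all 6.

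When all 15520 genes outside the set with a mean of at least 1 CPM on some day were ranked by Pearson correlation with the mean standardised log2 CPM of Tyr, Tyrp1, Dct, Pmel, Mlana, Oca2 and Slc45a2 over the 28 libraries, the 5 most alike were Trpm1 (r = 0.989), Slc24a5 (0.986), Lef1 (0.985), Gpsm2 (0.984) and Mycn (0.983). The points share their days, so these values describe a likeness of course only. Trpm1 and Slc24a5 are genes of pigment cells, whereas Gpsm2, a spindle orientation gene, stood at 44.5 CPM at day 0 and 92.6 CPM on day 14, a far smaller range than the pigment genes. The genes most like Mc1r were Slc24a5 (r = 0.969), Rbm15b (0.959) and Slc24a4 (0.958). Those most like Kit were Lrp2 (0.912), Ctnnb1 (0.908) and Zfp664 (0.904). Those most like Mitf were Ecm2 (0.919), Clec3b (0.894) and Dpp4 (0.893). No gene was named for more than 1 of these patterns other than Slc24a5.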

How the data were processed

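Skin of the wound site was sequenced in 28 libraries, 4 for each of 7 days, with 36706513 to 40655764 counted reads each. The sources used here do not say whether each library came from a separate mouse, so p-values measure only the spread between these libraries, which may be technical. The design text names 5 repeats a day, of which 4 were analysed here. The authors extracted RNA with TRIzol, prepared libraries with the VAHTS Universal V6 kit and deposited raw read counts per gene and FPKM values, and the submitters' processing notes name fastp, R 3.2.0 and mm10. The aligner, counter, annotation and strandedness are not given in the sources used here. The deposited FPKM equalled the deposited counts divided by gene length and library total, and they were used only for levels between genes and in the limma alternatives (pseudocount 1 or 0.1).

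Counts were filtered by filterByExpr and fitted with edgeR 4.0.16 (R 4.3.3, TMM, glmQLFit and glmQLFTest, two-sided) over the 7 days in 1 model without covariates. DESeq2 1.42.0, the study's tool, and limma 3.58.1 were alternatives. The study's rule asks for a log2 fold change of more than 1.5 either way with P below 0.05 before adjustment. CPM used TMM library sizes, a prior count of 2 on the log2 scale and a limit of 3 reads per library for a gene at 0. Positions came from the GENCODE annotation and promoters from RefSeq, both on GRCm38. The script was tested on simulated counts with known changes. The 10 members and the gene lists were chosen with earlier results of these data known. Named outside the members were, of each list, the genes past the rule with the 2 largest increases and decreases on any day, a fixed set of regulators (Asip, Pomc, Kitl, Edn3, Ednrb, Sox10, Pax3, Gpr143, Slc24a5, Mlph and Gpnmb) and the genes most alike by Pearson correlation (5 for the pigment genes together, 3 each for Mitf, Mc1r and Kit). Alternatives were other scalings, filters and tools, another call rule, the 8 libraries of each comparison, a replicate block and each library left out in turn. Tpsab1 of the mast cell list was not in the table. Comparisons with day 0 share its 4 libraries.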

Additional observations from a re-analysis of the deposited data

Results flagged for a closer look

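Of 69 groups of 4 libraries (a gene on a day), 3 held a library whose distance to the nearest of the others, as a share of the group's range, was above Dixon's 95% critical value, where about 3.45 would be so by chance. Mlana in day 0 replicate 4 was at 1.54 log2 CPM against 3.04 to 3.24 in the other 3. Mc1r in day 0 replicate 1 was at -0.66 log2 CPM, on 22 reads, against -2.7 to -2.4 in the other 3. Mc1r in day 10 replicate 3 was at 0.82 log2 CPM against 1.14 to 1.18. The 2 day 0 libraries concerned differ, so that replicate 1 is high for Mc1r and replicate 4 low for Mlana.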

How the results depend on the processing

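No log2 fold change of the 10 genes or of the 48 list genes that was past the rule turned its direction under any alternative tried. With all genes under 10 reads in some library left out, 6 of the 10 were left (Tyr, Oca2, Slc45a2 and Mc1r were not), and 4 in place of 8 were lower on day 3, 2 in place of 5 on day 5, and 3, 4 and 4 in place of 7, 8 and 8 on days 10, 12 and 14 as higher. Limma on FPKM, where the pseudocount compresses low genes, gave 3 (pseudocount 1) and 4 (0.1) as lower on day 3, 0 and 0 on day 5, and 3 (pseudocount 1) as higher on day 10. Fitted on the 8 libraries of each comparison alone, 5 were lower on day 3 and 3 on day 5. With an adjusted p under 0.05 and no fold limit, 8 were lower on day 5 and 1 (Mitf) on days 10 and 14. The calls of Slc24a5 and Trpm1 on day 5 ended without day 0 replicate 1.

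Of the 48 list genes together, 3, 2, 1, 5, 7 and 8 were past the rule as higher on the 6 wound days and 9, 9, 4, 0, 0 and 0 as lower. The filter at 10 reads gave 5, 5 and 2 as lower on days 3, 5 and 7 and 2, 4 and 5 as higher on days 10, 12 and 14. Limma with a pseudocount of 1 gave 1 higher and 2 lower for day 3, 1 and 1 for day 5, 0 lower for day 7 and 1 higher for day 10. With a pseudocount of 0.1 it gave 1 higher and 5 lower on day 5 and 1 lower on day 7. Adjusted p without a fold limit gave 21, 20, 15, 18, 21 and 23 higher and 18, 17, 11, 12, 8 and 12 lower on days 3 to 14.

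Alternatives for comparisons between wound days were chosen after seeing the data. Members past the rule as higher were 0 of 4 from day 3 to 5 by limma with pseudocount 1. From day 5 to 7 they were 0 in place of 3 by the filter and by limma with either pseudocount, and 7 without a fold limit. From day 7 to 10 they were 3 in place of 7 by the filter and by limma with pseudocount 1, and 1 was lower without a fold limit. From day 10 to 12 they were 1 in place of 4 by the filter and by limma with pseudocount 1, and 10 without a fold limit. From day 12 to 14 they were 8 higher and 1 lower without a fold limit, and from day 3 to 14 they were 4 in place of 8 by the filter.

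With each library left out in turn, members lower ranged from 7 to 8 on day 3 and from 1 (without day 0 replicate 1) to 6 on day 5, and members higher from 0 to 3 (without day 0 replicate 1) on day 7, 5 to 7 (without day 0 replicate 2 or 3, 5) for day 10 and 7 to 8 for day 12. List genes higher ranged over 3 to 4, 1 to 3, 1 to 2, 4 to 7, 7 to 8 and 8 to 9 for the 6 wound days in order, and lower from 9 to 10, 7 to 9 and 2 to 4 on days 3, 5 and 7 and 0 to 1 on day 14. Without library scaling the median of all genes shifted by 0.14 and 0.13 on days 12 and 14, which took Mitf on day 12 from -0.03 to 0.12, neither past the rule.

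The replicate numbers do not pair the libraries: over 84 pairs with the same number the deviations from the day means correlated at -0.0762 to 0.177, and 8 of 28 libraries correlated best with their own number. With a replicate block, members past the rule were 8 and 5 lower on days 3 and 5 and 7, 8 and 8 higher later, the same counts as without it, and list genes higher on day 12 were 8 in place of 7. DESeq2 gave the same member counts against day 0.

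Depth limits Oca2, Slc45a2 and Mc1r before day 10, where a library held 0 to 50 reads. The cause of none of these changes was tested beyond what the settings themselves leave out.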
